A study of Mus musculus with 30 samples.

Results

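The 8 libraries described here are the Tet2 wild-type (WT) RNA sequencing libraries of a mouse bone marrow ageing series, 8 of its 24 RNA libraries and of its 30 samples. They were chosen by their genotype and age labels: the 4 libraries from mice of 9 and 12 months (the older libraries) were set against the 4 from mice of 3 and 6 months (the younger libraries). At each age there was 1 library of LSK cells (lineage-negative, Sca1-positive, cKit-positive, the marrow fraction that holds stem and multipotent progenitor cells) and 1 of Lin-negative cells (marrow depleted of cells with mature lineage antigens). The mice were of the strain Mixed 129/C57BL/6, carried no Tet2 alteration by their label, and received no treatment named in the labels. Per the design text, marrow of 3 mice was pooled before sorting, so each library is a pool and the spread between single animals was not measured. The wider series asked how catalytic loss (Mut) and full loss (KO) of Tet2, an enzyme that oxidizes methylated cytosine in DNA, affect the same fractions at the same ages. The remaining 6 samples, bisulfite sequencing libraries, were not analysed here.

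Blood cells arise from rare self-renewing stem cells through progenitors that commit to lymphoid, myeloid, erythroid or megakaryocytic fates. B cell commitment runs through the transcription factors Ebf1 and Pax5, the recombinase Rag1 and the surrogate light chain proteins Igll1, Vpreb1 and Vpreb3. In mice, ageing of the stem cell compartment is known for a loss of lymphoid output and a gain of platelet-biased and myeloid-biased stem cells. Neutrophils maturing in marrow make their late granule proteins after their primary granule proteins.

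Values are the authors' normalized read counts, gene reads divided by 1 size factor per library, and they can be compared between libraries but not between genes, since they are not divided by gene length. The 8 libraries held 34787762 to 43059791 reads over the 16070 genes of the table. Differences are older minus younger, on the log2(value + 1) scale, with cell fraction as a factor, over the 15679 genes that reached a value of 10 in 4 or more of the 8 libraries. A gene is said to have risen or fallen where limma's Benjamini-Hochberg adjusted p was under 0.05.

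Several measurements touch every result. LSK and Lin-negative libraries could not be told apart by their RNA: 0 of 15679 genes differed between the fractions in limma with age as a factor (828 at an unadjusted p under 0.05), and Kit, Ly6a (which encodes Sca1), Cd34, Flt3, Mecom and Hlf differed by -0.082 to 0.068 on the log2 scale. Neutrophil transcripts were as abundant in the LSK libraries as in the others, so the labelled LSK enrichment is not visible. Libraries of the same age lay close together (r of 0.984 to 0.99 across genes, which are not replicates) and libraries of different ages lay further apart (r of 0.96 to 0.98), with a correlation within ages of 0.733 estimated by limma. For this reason calls are also given with age as a block, a fit of the 8 libraries that allows for this correlation. The unblocked p-values are too small to the extent that libraries of an age share mice. Each SE below is from the unblocked fit. For Pax5 the SE was 0.256 unblocked and 0.463 with age as a block, and for Hspa1b it was 0.299 and 0.293. The blocked fit uses 1 correlation for all genes and still counts 8 libraries, so its p-values can be too small as well. The sum of 4 Y-linked genes was 7299 and 5708 at 3 months (LSK, then Lin-negative), 1400 and 1340 at 6 months, 2638 and 2483 at 9 months, and 0 and 0 at 12 months. Xist, transcribed from the inactive X chromosome of females, was at 0 and 2165, 15220 and 13360, 38650 and 42750, and 18060 and 20890 in the same order. At 3 months Xist was at 3.77 and 5846 in Mut and at 4.48 and 5248 in KO, so at that age the fractions do not look drawn from 1 pool, although the design text has marrow pooled before sorting. By the Y-linked genes, the sex make-up of the pools therefore moved with age. Xist did not mirror these genes, being higher at 9 months, where they were present, than at 12 months, where they were at 0. The part of sex in the results was not tested beyond a fit with the Y-linked level as a covariate. The sum of mitochondrially encoded transcripts was 631000 and 767000 at 9 months and 365100 to 419400 at the other ages, and its part in the results was not tested. In bulk samples, fewer cells of a type and less RNA per cell cannot be told apart.

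In these libraries many B lymphoid and late neutrophil genes and some macrophage and interferon-induced genes fell at 9 and 12 months, and Hspa1a, Hspa1b and some erythroid, megakaryocyte and stem cell genes rose. With age as a block no megakaryocyte or long-term stem cell gene rose. With the fractions averaged at each age 1 megakaryocyte gene and 0 long-term stem cell genes rose. Of 15679 genes, 624 rose (3.98%) and 1359 fell (8.67%), 1983 in all (12.6%). With age as a block 525 genes passed (3.35%), and all 525 were among the 1983. Of these, 32 rose (0.204%) and 493 fell (3.14%), so that a larger share of the falls than of the rises held. With the fractions averaged at each age, so that 4 values enter the fit, 215 genes passed (1.37%), of which 17 rose (0.108%) and 198 fell (1.26%). The median difference over all genes was 0.04. Both older libraries lay above both younger ones in each fraction for 2210 genes (14.1%) and below them for 2503 (16%). Among called genes such separation held for 623 of the 624 that rose and 1355 of the 1359 that fell. The largest rises and falls were also chosen by it. Lack of overlap in the genes below therefore describes their values and adds no support to a call.

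**Figure D1:**
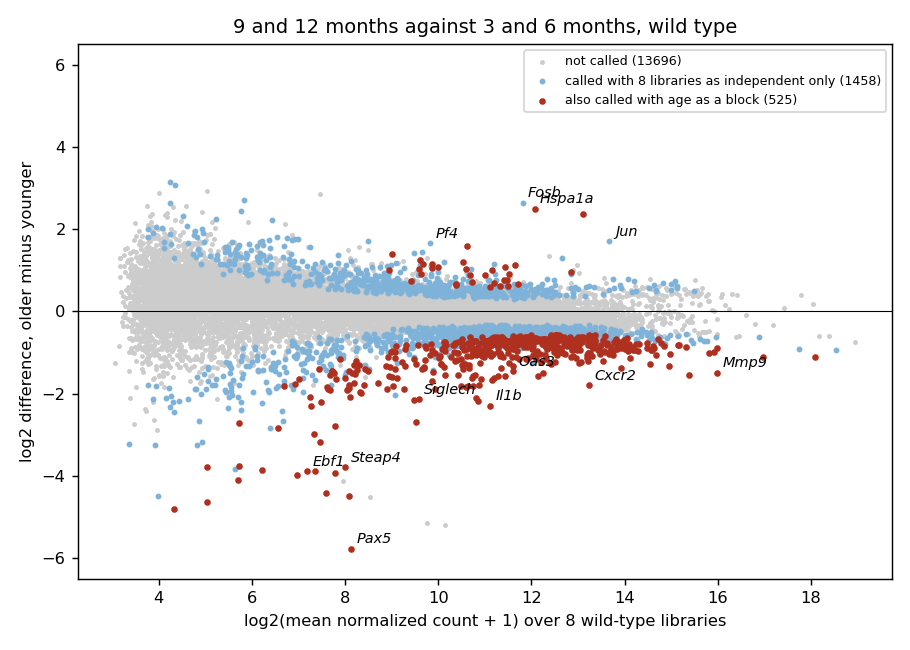
Log2 difference between older and younger WT libraries (vertical axis) against the log2 mean normalized count over the 8 libraries (horizontal axis), 1 point per gene tested. Of the 1983 genes called, the 525 that also passed with age as a block (dark red) are mostly below 0, with Pax5 lowest among them at -5.77, and 32 are above 0.

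The B lymphoid genes showed the deepest falls. Of 24 tested members of an early lymphoid and B lymphoid list, 18 fell and 0 rose, with a median of -1.28 against 0.04 for all genes; 12 of the 18 also passed with age as a block, and 11 members passed with the fractions averaged. The remaining listed gene, Vpreb2, was in the table but below the filter. The promoters of 4 of the 6 genes that fell and had a match to the motif below are shown, since members of this group moved together; they cover the 250 bases before the RefSeq start in build GRCm38.p6, 5′ to 3′, and capitals mark CAGGTG or its reverse complement, the E-box bound by the early B cell factor E2A. The windows are chr2:101649533-101649782 (minus strand), chr7:24897247-24897496 (plus strand), chr16:16863986-16864235 (minus strand) and chr16:16869256-16869505 (minus strand).
Rag1: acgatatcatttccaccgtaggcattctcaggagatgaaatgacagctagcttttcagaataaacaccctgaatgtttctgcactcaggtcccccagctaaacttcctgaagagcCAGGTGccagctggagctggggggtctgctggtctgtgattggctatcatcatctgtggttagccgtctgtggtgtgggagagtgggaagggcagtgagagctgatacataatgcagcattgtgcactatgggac
Cd79a: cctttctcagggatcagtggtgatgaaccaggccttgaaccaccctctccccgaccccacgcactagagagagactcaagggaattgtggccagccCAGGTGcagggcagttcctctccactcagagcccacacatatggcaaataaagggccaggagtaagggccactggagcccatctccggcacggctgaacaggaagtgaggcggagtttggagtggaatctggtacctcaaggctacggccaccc
Igll1: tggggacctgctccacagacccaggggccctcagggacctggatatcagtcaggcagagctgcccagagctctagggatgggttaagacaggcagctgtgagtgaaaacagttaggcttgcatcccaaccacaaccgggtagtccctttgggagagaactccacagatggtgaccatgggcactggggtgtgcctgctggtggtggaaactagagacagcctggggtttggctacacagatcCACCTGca
Vpreb1: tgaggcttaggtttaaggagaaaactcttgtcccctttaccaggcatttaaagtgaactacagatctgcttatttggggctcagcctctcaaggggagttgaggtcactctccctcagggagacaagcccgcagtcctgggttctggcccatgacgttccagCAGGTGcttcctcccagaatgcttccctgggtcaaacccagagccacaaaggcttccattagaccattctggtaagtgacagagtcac
Of the 18 genes that fell, 12 had a promoter entry (17 windows), and 6 of those windows, from 6 genes, held CAGGTG on either strand, against 17.2% of all 32851 windows of the same length. The windows of Pax5, Ebf1 and Vpreb3 held no match. A match is a description of letters only.

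Pax5, the factor that fixes B cell identity (chr4:44524748-44710694, GRCm38.p6), was at 438, 426, 8.97 and 5.25 in LSK and 810, 520, 11.9 and 10.2 in Lin-negative cells (libraries in the order 3, 6, 9, 12 months here and below). All 4 older libraries were at 11.9 or below and the groups did not overlap (log2 difference -5.77, SE 0.256, limma adjusted p = 1e-05, and 9.55e-05 with age as a block). This is 54.5-fold lower on the scale used, and it was the largest fall among the genes named by rule. Ebf1 (chr11:44618100-45008096), which acts with Pax5 to start the B cell program, was at 223, 202, 17.9 and 10.5 in LSK and 422, 242, 21.9 and 18.6 in Lin-negative cells. Every older library was below every younger one (log2 difference -3.89, SE 0.275, limma adjusted p = 0.000248, and 0.00211 with age as a block).

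Rag1 (chr2:101638252-101649532), which cuts DNA at antigen receptor loci, was at 456, 325, 64.6 and 21 in LSK and 504, 339, 21.9 and 13.6 in Lin-negative cells. Older libraries were lower in both fractions (log2 difference -3.93, SE 0.393, limma adjusted p = 0.000984, and 0.00568 with age as a block). Igll1, a surrogate light chain component of the pre-B cell receptor, was at 361, 79.8, 8.97 and 8.75 in LSK and 352, 152, 13.9 and 16.9 in Lin-negative cells. Its groups did not overlap, and the 6-month libraries lay between the 3-month and the older ones (log2 difference -3.97, SE 0.462, limma adjusted p = 0.00144, and 0.00568 with age as a block).

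Vpreb3, another protein of the pre-B cell stage, was at 288, 184, 32.3 and 6.12 in LSK and 492, 256, 32.8 and 16.9 in Lin-negative cells, and Vpreb1, the partner of Igll1, was at 263, 79.8, 19.7 and 18.4 in LSK and 247, 74.1, 12.9 and 27.1 in Lin-negative cells. Both fell, with differences of -3.88 and -2.83 (limma adjusted p with age as a block 0.00568 and 0.0282). Igll1 and the Vpreb genes belong to a family with similar members, and how reads with several matches were counted is not given in the sources used here. Of the signalling genes of the B cell receptor, Blnk, an adaptor, differed by -1.79 and Cd79a, a receptor chain, by -1.88 (limma adjusted p = 0.00616 and 0.00816 with age as a block), while Cd79b fell by 0.74 without passing the blocked fit (limma adjusted p = 0.111). Satb1, a chromatin organizer, and Bach2, a repressor, fell by 0.74 and 1.39 and also passed both fits (limma adjusted p = 0.0359 and 0.0445 with age as a block).

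Of the 24 members 6 did not pass in either fit. Of these, Ikzf1, a factor of early lymphoid priming, differed by -0.39 (limma adjusted p = 0.115), Tcf3, which encodes E2A, by -0.07 (0.784) and the cytokine receptor Il7r by -0.50 (0.0711). Flt3, the receptor of lymphoid-primed progenitors and outside the list, differed by -0.08 (0.789). Dntt, which adds bases during recombination, and Notch1, the receptor that directs T cell fate, fell by 0.72 and 0.51 but did not pass with age as a block (limma adjusted p = 0.119 and 0.112). The summed level of the whole list was 77200 to 97070 in the younger libraries and 53540 to 58010 in the older ones, and the B cell markers Ms4a1 and Cd79a were above 0 in every library; the part that the number of committed B cells plays was not tested.

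**Figure D2:**
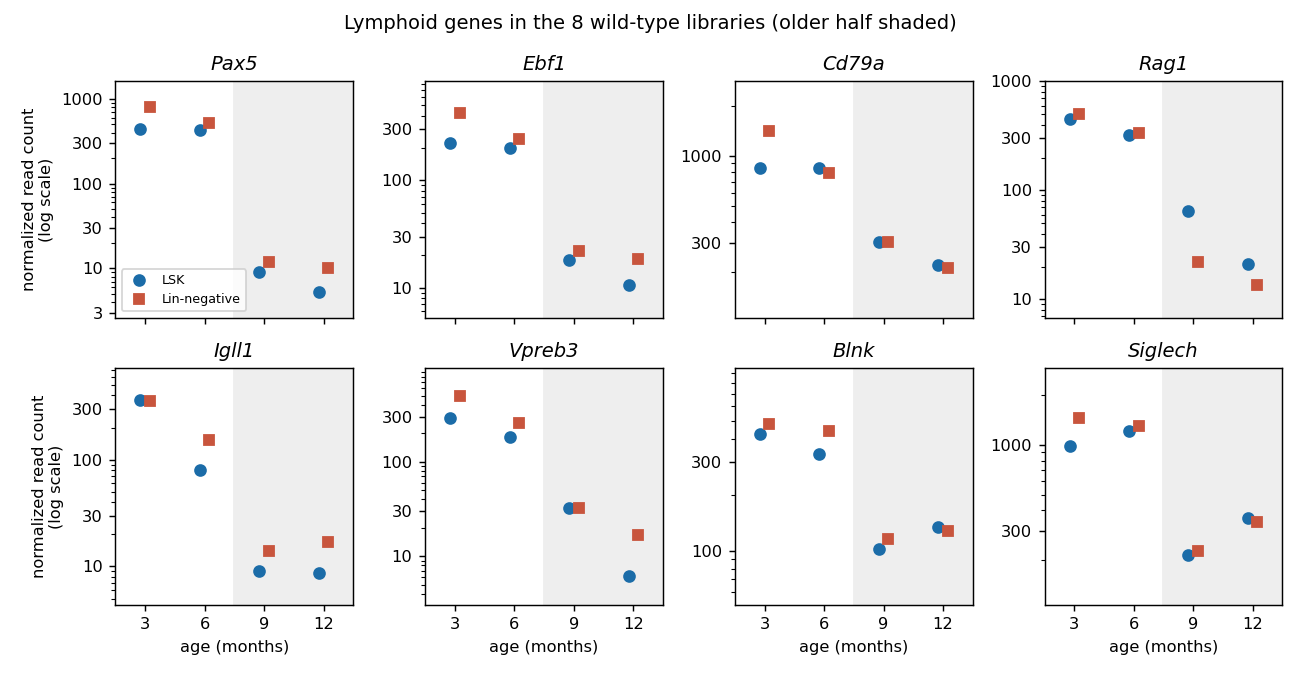
Normalized read counts (log axis) of 7 B lymphoid genes and Siglech, a plasmacytoid dendritic cell gene, in each WT library by age in months; circles are LSK, squares Lin-negative, and the shaded side holds the older libraries. Pax5 drops from 426 to 810 in the younger libraries to 5.25 to 11.9 in the older ones.

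Lymphoid genes outside the B lineage moved less evenly. Of 22 tested T and NK cell genes, 4 fell and 0 rose (Cd8b1, Cd8a, Lef1 and Cd4), with a median of 0.03, and Cd8b1 alone passed with age as a block. Cd8b1, a chain of the CD8 co-receptor, was at 206, 262, 49.3 and 43.7 in LSK and 295, 249, 37.8 and 77.9 in Lin-negative cells. Its older libraries were all lower (log2 difference -2.30, SE 0.25, limma adjusted p = 0.00121, and 0.0186 with age as a block), while Cd3e, which marks all T cells, kept 360 to 516 in every library. The summed T and NK list was 10230 to 11280 in younger and 10560 to 11910 in older libraries.

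Siglech (chr7:55768154-55779448), a surface lectin of plasmacytoid dendritic cells, was at 990, 1215, 214 and 360 in LSK and 1461, 1293, 228 and 341 in Lin-negative cells. The groups did not overlap (log2 difference -2.14, SE 0.199, limma adjusted p = 0.000758, and 0.00217 with age as a block). Among 20 tested dendritic cell and MHC class II genes, 6 fell and 1 rose, with a median of -0.44; Siglech and Cd74, the invariant chain of MHC class II, were the 2 that passed with age as a block, and Cd74 did not pass with the fractions averaged (limma adjusted p = 0.171). Spib, a factor shared by B and plasmacytoid dendritic cells and outside the naming rule, fell by 2.69 (limma adjusted p = 0.000229, and 0.00211 with age as a block).

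Other large falls came from genes of several kinds. Steap4, a metalloreductase induced by inflammatory signals, was at 447, 417, 32.3 and 33.2 in LSK and 567, 483, 35.8 and 32.2 in Lin-negative cells. Its older values lay within 32.2 to 35.8, and its groups did not overlap (log2 difference -3.79, SE 0.179, limma adjusted p = 1e-05, and 0.000208 with age as a block). Chst3, a chondroitin sulfotransferase, differed by -4.41, Akap12, a scaffold protein, by -3.18 and Fcmr, the IgM receptor, by -3.76, and all 3 passed with age as a block (0.00283, 0.00785 and 0.047 in limma). Klk1 and Cpm, which encode a kallikrein and a carboxypeptidase, differed by -4.10 and -3.86 and also passed it (0.0481 and 0.0134).

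Late neutrophil genes fell together. Of 16 late granule and S100 genes, all tested, 13 fell and 0 rose, with a median of -1.05, and 10 passed with age as a block. With the fractions averaged at each age 6 fell and 0 rose. Mmp9, the gelatinase of tertiary granules, was at 93570, 85760, 35090 and 33010 in LSK and 122100, 84210, 35340 and 32230 in Lin-negative cells. Older libraries were all lower (log2 difference -1.49, SE 0.162, limma adjusted p = 0.00121, and 0.00409 with age as a block). Cxcr2, the chemokine receptor that draws neutrophils out of marrow, was at 13740, 13510, 5136 and 3818 in LSK and 19580, 13470, 4850 and 3576 in Lin-negative cells, with no overlap (log2 difference -1.79, SE 0.166, limma adjusted p = 0.000758, and 0.00233 with age as a block).

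Not every member passed. S100a8 and S100a9, the calprotectin subunits, differed by -0.60 and -0.75 and Camp, a specific granule peptide, by -0.32, and none of these 3 passed (limma adjusted p = 0.21, 0.154 and 0.39). The summed list was 2438000 to 3203000 in younger and 1407000 to 1761000 in older libraries, and no member was at 0.

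Primary granule and early myeloid genes did not follow. Of 14 tested, 2 rose and 2 fell, with a median of 0.00, and with age as a block 0 rose and 2 fell. With the fractions averaged 0 rose and 0 fell. Ctsg, a primary granule protease, was at 19300, 22750, 32060 and 29750 in LSK and 15200, 23050, 32240 and 30340 in Lin-negative cells and rose by 0.65, but not with age as a block (limma adjusted p = 0.0239 and 0.102). Csf3r, the receptor for granulocyte colony-stimulating factor that persists to maturity, was at 38660, 26630, 15430 and 12150 in LSK and 44050, 26200, 15840 and 11230 in Lin-negative cells and fell (log2 difference -1.29, SE 0.204, limma adjusted p = 0.00456, and 0.0072 with age as a block). Csf3r did not pass with the fractions averaged (limma adjusted p = 0.0542). Mpo, the myeloperoxidase of promyelocytes, was at 150300, 191500, 120900 and 254200 in LSK and 130300, 193700, 117500 and 255100 in Lin-negative cells. It was highest at 12 months and lowest at 9 months, so that its older libraries lay on both sides of the younger ones (difference 0.09, limma adjusted p = 0.883).

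Inflammatory genes split by member. Il1b, the cytokine interleukin 1 beta, was at 3682, 3207, 1157 and 498 in LSK and 4536, 3104, 1096 and 457 in Lin-negative cells. Its older libraries were lower, those of 12 months most (log2 difference -2.29, SE 0.307, limma adjusted p = 0.00236, and 0.00233 with age as a block). Tlr2, a receptor for bacterial lipoproteins, was at 2799, 2501, 1501 and 1124 in LSK and 2972, 2376, 1532 and 1182 in Lin-negative cells, and it fell with no overlap (limma adjusted p = 0.00247, and 0.00734 with age as a block). Myd88, its adaptor, fell by 0.70 and also passed with age as a block (limma adjusted p = 0.0245), but not with the fractions averaged (0.145). Of 23 inflammatory genes tested, 5 fell and 2 rose, the chemokines Ccl3 and Ccl5, with a median of -0.42. With age as a block 3 fell and 0 rose, and with the fractions averaged 2 fell and 0 rose. Nfkb1, Rela, Tnf and Nfkbia did not pass. Without the 3-month libraries (where 2.27% of all genes fell and 0.909% rose) 0 members fell and 1 rose. Hdc, the histamine-forming enzyme of basophils and neutrophils, fell by 1.13 (limma adjusted p = 0.0031 with age as a block).

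Macrophage genes were lower at the older ages. Of 22 monocyte and macrophage genes tested, 8 fell and 0 rose, with a median of -0.50, and Axl, C1qa and C1qb passed with age as a block. With the fractions averaged 4 fell and 0 rose. Axl (chr7:25756500-25788924), a receptor for dying cells, was at 1031, 782, 358 and 356 in LSK and 871, 670, 361 and 335 in Lin-negative cells. All older libraries lay within 335 to 361 and below every younger one (log2 difference -1.23, SE 0.144, limma adjusted p = 0.00147, and 0.00849 with age as a block). C1qa, a chain of complement C1q made by tissue macrophages, was at 617, 310, 131 and 64.7 in LSK and 352, 352, 183 and 74.5 in Lin-negative cells, without overlap (log2 difference -1.91, SE 0.35, limma adjusted p = 0.0085, and 0.0492 with age as a block). Monocyte genes such as Ly6c2 (-0.14) and Ccr2 (-0.38) did not pass. The summed list was 408700 to 577100 in younger and 335700 to 360300 in older libraries. Without the 3-month libraries 1 of the 22 fell, and without the 9-month libraries (6.51% of all genes fell) 4 did.

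Interferon-induced genes fell in part. Of 32 tested, 13 fell and 0 rose, with a median of -0.52, and Oas3, Oasl2, Rsad2, Oas2 and Irf7 passed with age as a block. With the fractions averaged 3 fell and 0 rose. Oas3 (chr5:120753098-120777684), a sensor of double-stranded RNA, was at 4815, 3987, 1531 and 1685 in LSK and 5568, 3927, 1638 and 1786 in Lin-negative cells. Its older libraries were all lower (log2 difference -1.45, SE 0.128, limma adjusted p = 0.000744, and 0.00211 with age as a block). Rsad2, the antiviral protein viperin, was at 910, 726, 261 and 395 in LSK and 1056, 878, 331 and 441 in Lin-negative cells, also without overlap (log2 difference -1.33, SE 0.171, limma adjusted p = 0.00187, and 0.00663 with age as a block). Irf7, the factor that amplifies the interferon response, fell by 0.84, whereas Mx1, Stat2, Xaf1 and Gbp7 differed by 0.05, 0.02, -0.04 and 0.02 and did not pass. The number that fell was 4 without the 3-month libraries and 5 without the 9-month ones, and the medians stayed below 0 (-0.30 and -0.34).

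**Figure D3:**
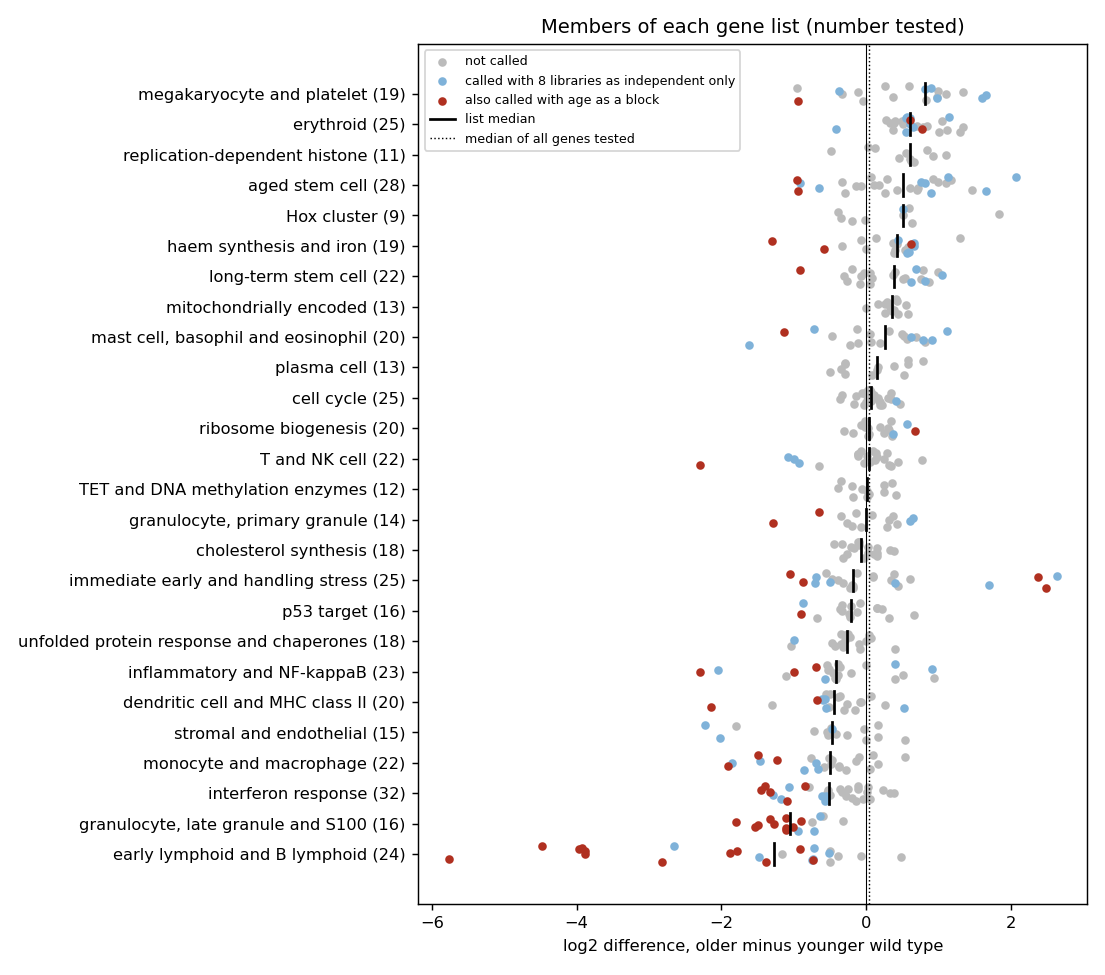
Log2 difference of each tested member of 26 gene lists, sorted by list median; dark red points passed with age as a block, blue points passed only with the 8 libraries taken as independent, and grey points did not pass. The early lymphoid and late granule lists have the lowest medians (-1.28 and -1.05), and the megakaryocyte and erythroid lists the highest (0.81 and 0.61).

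Some stress genes rose. Hspa1a and Hspa1b encode the inducible heat shock protein 70 from neighbouring, nearly identical genes, so reads may be shared between them. The 250 bases before each start are shown because both genes rose together; capitals mark GAANNTTC, a pair of inverted heat shock repeats, found on either strand in 6.69% of all windows. The windows are chr17:34972157-34972406 (minus strand) and chr17:34959239-34959488 (minus strand), GRCm38.p6, from RefSeq.
Hspa1a: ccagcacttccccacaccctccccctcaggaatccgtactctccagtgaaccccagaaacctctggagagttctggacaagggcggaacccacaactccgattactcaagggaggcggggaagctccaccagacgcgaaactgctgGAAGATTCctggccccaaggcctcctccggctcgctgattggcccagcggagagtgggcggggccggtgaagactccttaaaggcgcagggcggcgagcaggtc
Hspa1b: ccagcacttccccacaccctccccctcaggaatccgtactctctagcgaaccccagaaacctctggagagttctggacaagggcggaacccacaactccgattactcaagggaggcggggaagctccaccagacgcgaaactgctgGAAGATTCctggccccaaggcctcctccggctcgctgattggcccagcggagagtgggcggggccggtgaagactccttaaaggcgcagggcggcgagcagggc
Both matches read GAAGATTC and began 104 bases before the start, and the 2 windows of Dnajb1, also a heat shock gene, held no match.

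Hspa1a was at 1434, 850, 9008 and 6323 in LSK and 2324, 885, 8131 and 5432 in Lin-negative cells. Older libraries were all higher, the 9-month ones most (log2 difference 2.49, SE 0.305, limma adjusted p = 0.00161, and 0.00353 with age as a block). Hspa1b was at 3799, 1912, 17670 and 12890 in LSK and 4500, 1794, 16290 and 11390 in Lin-negative cells, again without overlap (log2 difference 2.37, SE 0.299, limma adjusted p = 0.00166, and 0.00211 with age as a block). Its lowest libraries were those of 6 months. Dnajb1, a co-chaperone, rose by 0.41 but not with age as a block (limma adjusted p = 0.145).

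Jun, a subunit of the AP-1 factor, was at 3245, 6786, 22410 and 18100 in LSK and 10000, 5997, 20720 and 17510 in Lin-negative cells. The younger libraries spread widely and the 3-month pair differed most, but all older ones were higher (log2 difference 1.70, SE 0.266, limma adjusted p = 0.00436, and 0.108 with age as a block). Fosb, a Jun partner, was at 234, 1468, 9471 and 3511 in LSK and 1311, 1261, 8418 and 3054 in Lin-negative cells, with the highest values at 9 months (log2 difference 2.64, SE 0.576, limma adjusted p = 0.0175, and 0.134 with age as a block). Junb, the alternative Jun subunit, went the other way, at 17450, 18400, 10720 and 7334 in LSK and 19820, 17860, 10670 and 7352 in Lin-negative cells, and fell (log2 difference -1.05, SE 0.157, limma adjusted p = 0.00376, and 0.00765 with age as a block), as did Fosl2 by 0.87 (limma adjusted p = 0.00616 with age as a block). Fos overlapped between the groups (0.43, limma adjusted p = 0.158), and Egr1, Dusp1, Nr4a1 and Atf3 did not pass. Of 25 immediate early and handling stress genes, 5 rose and 5 fell, and 2 each way passed with age as a block. With the fractions averaged at each age 4 rose and 0 fell. Jun and Fosb passed that fit (limma adjusted p = 0.00442 and 0.0102), and Junb and Fosl2 did not (0.0677 and 0.0682).

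**Figure D4:**
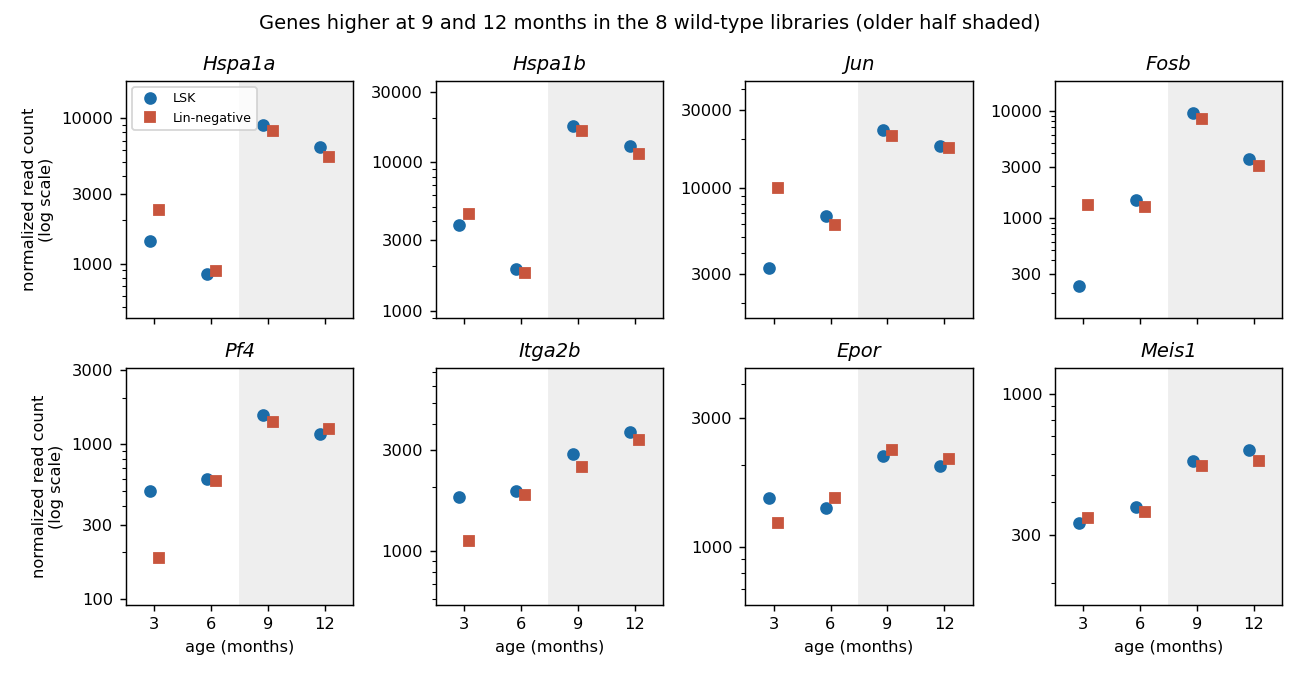
Normalized read counts (log axis) of 8 genes that rose, in each WT library by age in months; circles are LSK, squares Lin-negative, and the shaded side holds the older libraries. In each panel the 4 older values lie above the 4 younger ones. Of these genes, Hspa1a and Hspa1b also passed with age as a block. With the fractions averaged Jun, Fosb and Pf4 passed as well, and Itga2b, Epor and Meis1 did not.

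Megakaryocyte genes rose in number but not with age as a block. Of 19 tested, 5 rose and 2 fell, with a median of 0.81, and with age as a block 0 rose and Plek fell. With the fractions averaged at each age 1 rose, Pf4 (limma adjusted p = 0.0164), and 1 fell, Plek (0.0473). The summed list did not rise, at 22230 to 27470 in younger and 19770 to 26260 in older libraries. Pf4, platelet factor 4, was at 503, 595, 1555 and 1159 in LSK and 183, 575, 1392 and 1252 in Lin-negative cells. All older libraries were higher, and the 3-month Lin-negative library was the lowest (log2 difference 1.66, SE 0.313, limma adjusted p = 0.00958, and 0.0902 with age as a block). Itga2b, the platelet integrin CD41, was at 1796, 1932, 2876 and 3649 in LSK and 1121, 1849, 2490 and 3362 in Lin-negative cells, with its highest values at 12 months (log2 difference 0.90, SE 0.172, limma adjusted p = 0.00996, and 0.057 with age as a block). Treml1, a platelet granule receptor, rose by 1.60 but not with age as a block (limma adjusted p = 0.123). The von Willebrand factor gene Vwf, a marker of platelet-biased stem cells, differed by 1.11 and did not pass (limma adjusted p = 0.0797). With the Y-linked level as a covariate (9.42% of all genes rose) the list's median was 0.28 and 3 members rose, and without the 3-month libraries it was 0.32 and 1 rose.

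Stem cell genes gave a mixed picture. Of 22 long-term stem cell genes tested, 4 rose, Meis1, Gata2 and Esam among them, and 1 fell, with a median of 0.39, and with age as a block 0 rose and 1 fell. Meis1, a homeobox factor of stem cells, was at 333, 381, 566 and 621 in LSK and 348, 366, 540 and 566 in Lin-negative cells. Older libraries were higher in both fractions, with little spread inside each group (log2 difference 0.68, SE 0.122, limma adjusted p = 0.00759, and 0.102 with age as a block). Of 28 tested genes known to mark aged stem cells, 6 rose and 4 fell, with a median of 0.52. Of these, 0 rose and 2 fell with age as a block, Plek and Gda. The summed level of this list was lower in the older libraries, at 46310 to 55080 in younger and 34530 to 39600 in older ones. Klhl4 was at 5.47, 6.65, 35.9 and 29.7 in LSK and 14.2, 7.7, 55.6 and 30.5 in Lin-negative cells, a rise that did not pass the blocked fit (log2 difference 2.07, SE 0.402, limma adjusted p = 0.0109, and 0.206 with age as a block). Neo1, Selp and Clu, also used as markers of aged stem cells, did not pass. Kit and Ly6a differed by 0.05 and 0.05 (limma adjusted p = 0.888 and 0.923). Hoxa9 alone of 9 Hox genes rose, by 0.51, but not with age as a block (limma adjusted p = 0.337).

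Erythroid genes were higher at the older ages in nearly every member. Of 25 tested, 24 were above 0, 9 rose and Nfe2 fell, with a median of 0.61, and Sphk1 and Cldn13 passed with age as a block; neither passed with the fractions averaged (limma adjusted p = 0.188 and 0.14). Epor, the erythropoietin receptor, was at 1518, 1388, 2170 and 1986 in LSK and 1224, 1520, 2285 and 2113 in Lin-negative cells. Older values were higher in both fractions (log2 difference 0.60, SE 0.11, limma adjusted p = 0.00843, and 0.108 with age as a block). Sphk1, a sphingosine kinase that supplies erythrocyte sphingosine phosphate, was at 2434, 2127, 3609 and 3192 in LSK and 2258, 2314, 3629 and 3480 in Lin-negative cells (log2 difference 0.61, SE 0.0962, limma adjusted p = 0.00457, and 0.0443 with age as a block). Slc4a1, the anion exchanger band 3, was at 2893, 8529, 9923 and 9220 in LSK and 1899, 10060, 11610 and 9997 in Lin-negative cells. Its 6-month values were nearer to the older ones than to those of 3 months (1.12, limma adjusted p = 0.135). The count of rises was 20 without the 6-month libraries (2.25% of all genes rose) and 2 without the 3-month libraries. The summed list was 104200 to 157600 in younger and 173500 to 197300 in older libraries.

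In haem synthesis and iron handling, 6 of 19 rose and 2 fell, with a median of 0.43. With age as a block 1 rose and 2 fell, and with the fractions averaged 0 rose and 1 fell. Tfr2, an iron sensor of erythroid cells, was at 2157, 1900, 3012 and 3179 in LSK and 1953, 2094, 3039 and 3261 in Lin-negative cells, without overlap (log2 difference 0.63, SE 0.0943, limma adjusted p = 0.0039, and 0.0409 with age as a block), and did not pass with the fractions averaged (0.172). Hmox1, which breaks down haem in macrophages, was at 2447, 1382, 840 and 854 in LSK and 2879, 1650, 826 and 738 in Lin-negative cells. It fell (log2 difference -1.30, SE 0.213, limma adjusted p = 0.00531, and 0.0143 with age as a block), as did Slc40a1, the iron exporter ferroportin, by 0.58 (limma adjusted p = 0.047 with age as a block).

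The remaining lists had few calls. Of 12 TET and DNA methylation enzymes 0 rose and 0 fell: Tet1 differed by 0.41, Tet2 by 0.24 and Tet3 by 0.01 (limma adjusted p = 0.396, 0.554 and 0.984). Tet2 itself was at 1529, 2265, 2951 and 1431 in LSK and 1815, 1745, 3098 and 1632 in Lin-negative cells. It was highest at 9 months and lowest at 12 months, so the groups overlapped. Of 25 cell cycle genes Tyms, the thymidylate synthase, rose by 0.42 but not with age as a block (limma adjusted p = 0.171), and of 20 ribosome biogenesis genes Gnl3, Nop56 and Wdr12 rose, Gnl3 also with age as a block (limma adjusted p = 0.0338, and 0.156 with the fractions averaged). Of 16 p53 targets, Sesn2 and Trp53inp1 fell by 0.91 and 0.87 (limma adjusted p = 0.0294 and 0.052 with age as a block). Neither passed with the fractions averaged (0.0597 and 0.137 in limma). In the unfolded protein response list Chac1 fell (1 of 18), but not with age as a block (limma adjusted p = 0.24), and the list's median was -0.27. The cholesterol (18), plasma cell (13), mitochondrially encoded (13) and histone (11) lists had 0 rises and 0 falls. Among mast cell, basophil and eosinophil genes 4 rose and 3 fell of 20, shares above those of all genes, and with age as a block 0 rose and Hdc fell. Of 15 stromal and endothelial genes 3 fell, Cdh5, Igfbp5 and Apoe, and none with age as a block. With the fractions averaged Cdh5 alone passed (limma adjusted p = 0.0282). The summed level of this list was 55690 to 69030 in younger and 32600 to 61190 in older libraries.

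Beyond the lists, the largest rises by the naming rule were of low or moderate transcripts. Dsc2, a desmosome cadherin, was at 7.3, 24.4, 91.5 and 91 in LSK and 4.05, 38.5, 95.4 and 93.2 in Lin-negative cells, and its difference was 2.71 (limma adjusted p = 0.0183, and 0.0728 with age as a block). Apol11b rose by 2.21, Myom1 by 1.80, Robo3, an axon guidance receptor, by 1.80, Lama5, a laminin chain, by 1.76, Mid1 by 1.75, Cpne7 by 1.73 and Rgs1, a regulator of G protein signalling, by 1.72. None of these 8 passed with age as a block. With the fractions averaged Lama5 and Rgs1 passed (limma adjusted p = 0.0387 and 0.0442), and the rest did not.

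Within single fractions fewer genes passed, with 2 libraries against 2 and a spread shared over the 8. In LSK 4 genes fell (0.0255%), Pax5, Ebf1, Spib and Steap4, and 0 rose, with 1880 genes at an unadjusted p under 0.05 in limma and 4 called by edgeR. In Lin-negative cells 37 fell (0.236%) and 0 rose. Pax5 differed by -5.78 in LSK and by -5.76 in Lin-negative cells (limma adjusted p = 0.00223 and 0.00152), and Siglech differed by -1.98 and -2.30 (0.071 and 0.026). The difference between the fractions passed for 0 genes in limma (0%, 49 at an unadjusted p under 0.05) and 0 in edgeR (57). All 1983 genes called over both fractions had the same sign in each. The call itself averages the fractions, so this shared sign was nearly fixed by it and is no test of the fractions.

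The same ages in the other Tet2 genotypes gave a point of reference. The 12-month LSK Mut library was placed by its title, while its description code in the labels ends as those of KO libraries do. In a fit over all 24 libraries, which tested 16061 genes, 903 genes rose (5.62%) and 1723 fell (10.7%) in WT, 130 rose (0.809%) and 68 fell (0.423%) in Mut, and 301 rose (1.87%) and 775 fell (4.83%) in KO. The test of the WT difference against the mean of the Mut and KO differences passed for 0 genes in limma (0%, 833 at an unadjusted p under 0.05) and 0 in edgeR (850), so no gene is called particular to WT. Of the B lymphoid list 16 fell in WT, 6 in Mut and 16 in KO, with medians of -1.28, -0.80 and -1.50. For Pax5 the differences were -5.77 in WT, -3.09 in Mut and -4.16 in KO, and for Steap4 they were -3.79, -1.26 and -1.56. The late granule list had 13 falls in WT, 0 in Mut and 11 in KO (medians -1.05, -0.50 and -0.75). Interferon genes fell in 8, 0 and 0 cases (medians -0.52, -0.32 and 0.07) and monocyte and macrophage genes in 10, 0 and 0 (-0.50, -0.15 and -0.03). Oas3 differed by -1.45 in WT, -0.51 in Mut and -0.08 in KO, and the difference of WT from the others had a limma adjusted p of 0.448. Hspa1a differed by 2.49, 0.96 and 0.82 (limma adjusted p of the difference 0.664).

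**Figure D5:**
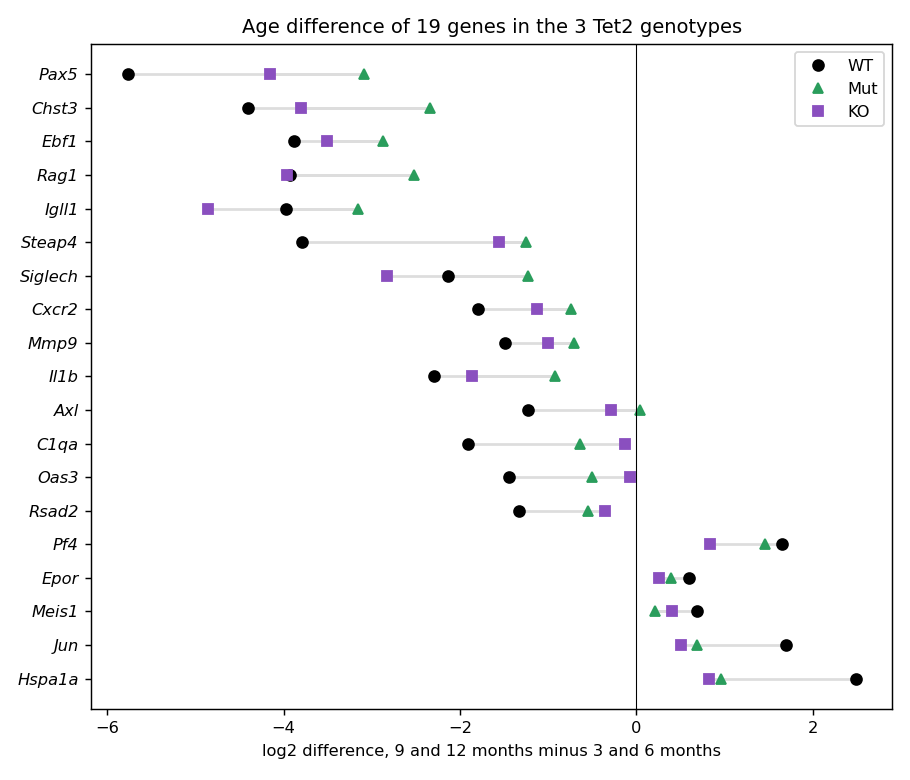
Log2 difference between 9 and 12 months and 3 and 6 months for 19 genes in WT, Mut and KO libraries (8 libraries a genotype). Most of the genes were chosen by their WT difference, so nothing is read from WT points lying furthest from 0; Rag1, Igll1 and Siglech are lowest in KO, and none of the differences between WT and the other genotypes passed.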

How the data were processed

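Genotype, fraction and age came from the labels, each table column was assigned to its sample by name (by title for the 12-month LSK Mut library, whose description code differs from its column), and 0 other columns of samples were present. The deposited values are a signal: read counts that the authors divided by 1 size factor per library, with whole reads recovered to within 2.7e-09 reads. Per the submitters' processing notes, which give no roles, the tools were STAR 2.7.3a, Trim Galore 0.6.5, edgeR and featureCounts, with mm10. For strand setting and multiply matching reads the choice is not stated in the sources used here. Of 16070 symbols, 14703 (91.5%) matched RefSeq.

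Differences were tested with limma 3.58.1 (R 4.3.3, mean-variance trend, log2(value + 1), two-sided), and age as a block used its duplicate correlation. Alternatives included edgeR 4.0.16 and DESeq2 1.42.0 on recovered reads. The unblocked tests were run on simulated counts in which libraries of an age shared no effect. The fits with age as a block and with the fractions averaged were not run on them. The simulation therefore cannot give error rates for libraries that are alike within an age, as these are. The members and lists were chosen with earlier results of these data known. Named genes were the 12 largest rises and falls among called genes with a mean of at least 50 and no overlap in either fraction (predicted genes, pseudogenes and receptor segments left out), up to 4 called members of each list, and Tet1, Tet2, Tet3, Kit, Ly6a and the sex-linked genes; other genes were named after their values were seen. Age pairs the fractions: libraries of an age lay closest, and per the design text pools were made before sorting, although at 3 months Xist (0 in LSK and 2165 in Lin-negative cells) goes against 1 shared pool. P-values measure the spread between libraries, which may be partly technical. Some genes of the fixed lists are not reported here.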

Additional observations from a re-analysis of the deposited data

How the results depend on the processing

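Of the 1983 genes called over both fractions, the count was 525 with age as a block (the pairing of fractions; 32 higher, 493 lower), 215 with the fractions averaged at each age (17 and 198), 1083 with age as a number, 1205 without the mean-variance trend, 3280 with the Y-linked level as a covariate (1477 and 1803, 1678 shared) and 3304 with DESeq2 (1367 and 1937). edgeR called 2035. Leaving out both libraries of an age gave 486 (3 months), 1165 (6 months), 1213 (9 months; 232 higher and 981 lower, of which 117 and 842 were also called in all 8) and 4638 (12 months), and 724 to 2282 with 1 library left out, lowest without the 3-month Lin-negative library. The LSK count of 4 was 13 with the Y-linked level and 0 to 33 with 1 library left out. The Lin-negative count of 37 became 116 with log2(value + 8), 230 with the Y-linked level and 0 to 149 with 1 library left out. The count against Mut and KO was 4 with log2(value + 8) (Pltp, Vwde, Cemip and Ndrg4) and 0 in the other fits, and no fit called a gene for the difference between fractions. No named gene changed direction with its call in any of these fits. Among 97 named genes, 41 lost the call with age as a block, 48 with the fractions averaged, 45 without the 3-month libraries and 20 without the 9-month libraries. The cause of these changes was not tested. Since each age had at most 1 pool per fraction, age and pool cannot be told apart.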

Other observations

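Of the 32 genes that rose with age as a block, several were host genes of small nucleolar RNAs, transcripts whose introns yield guides for modification of ribosomal RNA. This group was picked after its values were seen, so its counts are a description. Of 14 tested genes named Snhg with a number or Gas5, all 14 were above 0, 10 rose and 0 fell in limma, and 4 (Gas5, Snhg1, Snhg5 and Snhg17) passed with age as a block; with the fractions averaged at each age none of these 4 passed (limma adjusted p = 0.146, 0.104, 0.139 and 0.0715); the median was 0.95 and 11 had no overlap between older and younger libraries. Gas5, a host transcript of several such RNAs, was at 6797, 3730, 12460 and 7768 in LSK and 5612, 3936, 11280 and 7140 in Lin-negative cells, youngest first. It was lowest at 6 months and highest at 9 months, and its difference was 0.95 (SE 0.236, limma adjusted p = 0.0292, and 0.0461 with age as a block). Without the 9-month libraries the difference was 0.61 (limma adjusted p = 0.164). Snhg1 followed the same order of ages, at 2220, 1549, 5225 and 2821 in LSK and 1810, 1360, 4742 and 2373 in Lin-negative cells. The host genes Taf1d, Rabggtb and Gnl3, outside that name rule, rose by 0.91, 0.68 and 0.67. The mitochondrially encoded sum was also highest at 9 months, and its part in these values was not tested.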
